A study of Mus musculus with 15 samples.

Results

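The actin, Arp2/3 and cortical cytoskeleton genes examined here were 51 genes named from general knowledge of the actin cortex, with earlier results of these data known. Shares of members set beside all genes are therefore descriptive. The members were matched by Ensembl identifier to symbols in GENCODE vM21, out of 30949 genes listed in every library. All 51 were found, and all 51 passed the filter of at least 1 TPM (transcripts scaled for gene length and library total) in at least 2 libraries that left 29989 genes to test. Vcl (vinculin, an adaptor between integrins and actin) passed it narrowly, with 1.27 TPM as its highest value in any library. Values came from Smart-Seq2, which copies polyadenylated RNA from small cell samples, in 15 libraries of regulatory T (Treg) cells. Cells were sorted as CD25+CD39+ from lymph nodes and spleen of C57BL/6 females that were Foxp3YFP-Cre/+ and Dock8flox/flox. Foxp3 is X-linked, so each of these females carried Treg cells that used the Cre allele beside Treg cells that used the other X chromosome. The YFP+ cells, whose Cre is driven by Foxp3 and deletes floxed Dock8 in Treg cells, are called KO, and the YFP- cells of the same floxed genotype are called WT. After 16 h of culture there were 2 KO and 3 WT libraries given 1 bead per cell, coated with antibodies to CD3 and CD28, and 6 KO and 4 WT libraries in medium alone, called unstimulated. DOCK8 is a guanine nucleotide exchange factor for the GTPase CDC42, and the series title names the immune synapse, so the comparisons asked how genes of the actin machinery differed with DOCK8 deficiency and with stimulation. The labels call the samples independent, do not say whether each came from a separate mouse, and give no age.

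Beneath the T cell membrane, actin monomers assemble into filaments, and the Arp2/3 complex starts new filaments as branches on existing ones when the WAVE complex or WASP activates it downstream of Rac or CDC42. Profilin, cofilin and thymosins govern the supply of monomers, capping proteins stop filament growth, and non-muscle myosin II contracts the network. Ezrin, radixin and moesin tie filaments to the membrane, and integrin adaptors tie them to adhesion receptors. When a T cell meets a stimulating surface this network spreads and forms the immune synapse.

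Many actin genes are known targets of serum response factor, which binds the CArG box, a run of A and T bases between CC and GG. RefSeq promoter windows on GRCm38.p6, from 250 bases before to 50 bases after each start, were at hand for 41 of the 51 members. The CArG box, which reads alike on both strands in this form, was in the windows of 4 of these 41 members (9.76%), Actg1, Arpc4, Myl6 and Vcl, against 488 of 27025 genes with a window (1.81%) and 274 of 16760 tested genes (1.63%). The upstream stretches of Actg1 and Vcl are shown because both hold the box outside any annotated exon, while Actg1 was among the most abundant members and Vcl was the least abundant. Capitals mark the box, which began 90 bases before the RefSeq start of the window in Actg1 and 227 bases before it in Vcl. These starts need not match the ends of the GENCODE gene coordinates given further on.
Actg1, chr11:120348551-120348610, minus strand: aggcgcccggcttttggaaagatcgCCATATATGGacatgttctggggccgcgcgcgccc
Vcl, chr14:20929148-20929205, plus strand: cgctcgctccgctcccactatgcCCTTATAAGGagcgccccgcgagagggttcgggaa
The hexamer GGGCGG, searched on both strands, was in the windows of 34 of 41 members (82.9%), against 38.2% of all genes with a window and 51.3% of tested genes. TATAAA, searched likewise, was in 4 of 41 (9.76%), against 15.7% and 13.2%. These matches describe the letters in the windows and say nothing of factor binding.

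Several members are close copies of each other, which bears on how reads could be assigned. The annotated coding sequences of Myl12a and Myl12b, both regulatory light chains of non-muscle myosin II, are 519 bases long and 96.5% identical, with a longest identical run of 105 bases. Those of Actb and Actg1, cytoplasmic beta and gamma actin, are 1128 bases long and 88.7% identical. The myosin light chain stretch below, coding bases 145 to 204, holds 9 of the 18 bases that differ, and is shown because the ratio of these neighbouring genes on chromosome 17 is described further on. Capitals mark the differing bases.
Myl12a: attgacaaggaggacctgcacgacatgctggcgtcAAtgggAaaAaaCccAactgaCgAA
Myl12b: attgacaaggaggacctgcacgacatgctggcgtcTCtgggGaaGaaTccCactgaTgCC
GENCODE vM21 also annotates a second protein-coding gene under the name Myl12b, on the same strand. It shares exons with both and is not analysed here. Exon bases were shared with another protein-coding gene in 18 of the 51 members.

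Deposited tables of the 10 unstimulated libraries listed 36904 genes and those of the 5 bead libraries 31785, with TPM sums between 819697 and 938139, so the treatment and the set of listed genes cannot be told apart. TPM keep no read depth. Dock8 averaged 8.58 ± 1.85 TPM in 6 unstimulated KO libraries and 14.6 ± 5.35 TPM in 4 unstimulated WT libraries (SD), a log2 difference of -0.67 with a limma adjusted p of 0.369. With beads it averaged 6.86 ± 1.47 TPM in KO (n = 2) and 9.25 ± 0.763 TPM in WT (n = 3), and TPM over the whole gene also count exons that the floxed deletion leaves. A set of 12 predicted repeat-derived genes took 37.6% ± 8.59 of listed TPM in unstimulated KO libraries, 26.6% ± 8.77 in unstimulated WT, 15.4% ± 4.62 in KO with beads and 10.7% ± 3.13 in WT with beads. TPM of all other genes move with that share. Results are therefore also given after scaling each library to 815 abundant genes, those whose group means were all 50 TPM or more, with factors of 0.847 ± 0.168, 1.09 ± 0.15, 1.17 ± 0.0342 and 1.08 ± 0.0252 in the same order of groups. Across all tested genes the scaling moved the median log2 difference of KO against WT without beads to 0.12, against -0.11 as deposited.

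T and Treg cell markers (8 of 8 listed, among them Cd3e, Foxp3 and Il2ra) summed to between 436 and 692 TPM in unstimulated KO libraries, 750 and 1342 TPM in unstimulated WT, 1334 and 1447 TPM in KO with beads and 1282 and 1460 TPM in WT with beads. B cell markers (5 of 5 listed) stayed at or under 32.1 TPM in any library and myeloid markers (4 of 5 listed) at or under 31.2 TPM. CD8 T and NK cell markers (5 of 5) ranged from 22.3 to 69.2 TPM. Smooth muscle and stromal markers (10 of 10), which include the muscle actins, summed to between 32.8 and 33.6 TPM in KO with beads, 16.4 and 26.3 TPM in WT with beads, 29.6 and 91.0 TPM in unstimulated KO and 50.4 and 65.7 TPM in unstimulated WT, with Acta1 at 0 in both KO bead libraries. Their part in the results was not tested.

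The 51 genes together made up 1.58% ± 0.0171 of listed TPM in KO libraries with beads (n = 2) and 1.62% ± 0.00977 in WT libraries with beads (n = 3), against 0.547% ± 0.170 in unstimulated KO (n = 6) and 0.890% ± 0.265 in unstimulated WT (n = 4). Leaving the repeat-derived genes out of the total gave 1.88% ± 0.123, 1.81% ± 0.0553, 0.869% ± 0.197 and 1.20% ± 0.265 in the same order. Their mean log2(TPM + 1) per library was 6.5 and 6.52 in KO with beads and lay between 6.49 and 6.52 in WT with beads. Without beads it lay between 5.15 and 6.07 in KO and between 5.68 and 6.54 in WT. The unnumbered KO library, at 6.07, and KO library 3, at 5.83, stood within the WT range. The other KO libraries lay between 5.15 and 5.61. In bulk samples fewer cells of a type and less RNA per cell cannot be told apart.

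**Figure D1:**
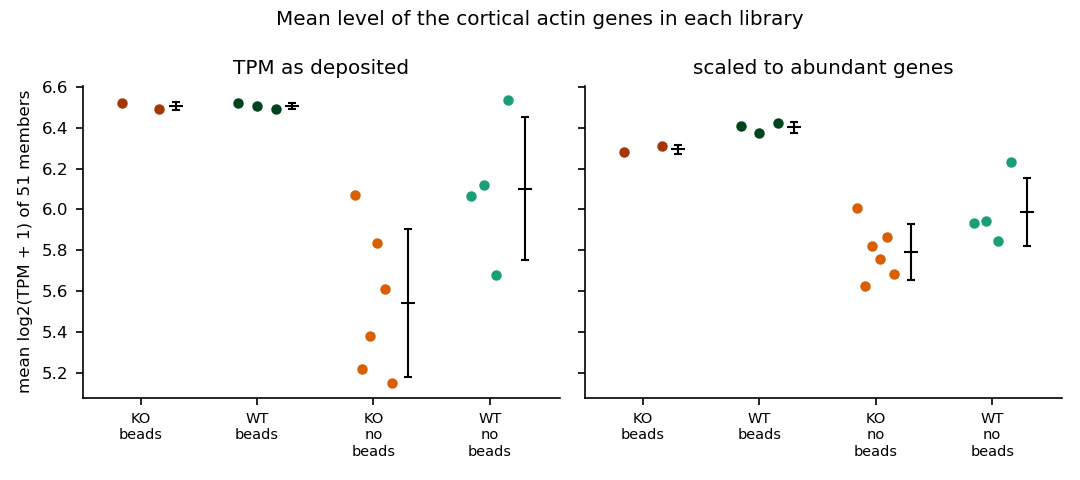
Mean log2(TPM + 1) of the 51 members in each library (points) with the group mean and SD (bars), as deposited on the left and scaled to abundant genes on the right, for KO and WT with beads and without. Bead libraries sit close together near 6.5 as deposited, and unstimulated libraries spread between 5.15 and 6.54.

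Stimulation was the comparison in which members passed the test. In KO cells 19 of 51 members were called higher with beads (37.3%; limma adjusted p under 0.05), against 5.95% of all tested genes and 26.6% of the 5937 more abundant genes, whose mean reached 20 TPM in some group. None was called lower, against 2.15% of all genes and 5.95% of the more abundant ones. In WT cells 9 of 51 were called higher (17.6%), against 4.60% of all tested genes and 20.5% of the more abundant ones, so the WT share lay near that background. Only Evl was called lower in WT, against 6.63% of all genes and 15.1% of the more abundant ones. All 9 genes called higher in WT were also called in KO (9 of 9 and 9 of 19). The group means of these comparisons came from different libraries, but limma's estimate of each gene's spread came from all libraries together. The calls in WT and KO are therefore not independent. The WT call of Myl6, for example, was lost without unstimulated KO library 4 and without unstimulated KO library 5. The median log2 difference of the members was 1.06 in KO (0.74 in the more abundant genes, -0.23 in all genes) and 0.34 in WT (0.19 and -0.44). Scaled to abundant genes the KO median was 0.59. In KO 13 members were then called higher (25.5%), against 4.25% of all genes and 19.7% of the more abundant ones. Only 1 was then called lower in KO, against 6.12% and 14.1%. The scaled WT median was 0.34, with 12 called higher (23.5%), against 4.88% and 22.3%, and 1 lower, against 5.77% and 15.1%. This scaling added Arpc4, Brk1 and Lcp1 to the genes called higher in WT, and in KO it took away Arpc5, Tmsb10, Capza2, Lcp1, Rdx and Rac2. Without KO bead library 4 the KO calls numbered 5, and without library 5 they numbered 4. Every KO bead library lay above every unstimulated KO library for 30 members, against 11.2% of all genes, and the same held in WT for 16 members, against 8.61%. Here and below, counts without overlap were set beside all tested genes only, not the more abundant ones.

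**Figure D2:**
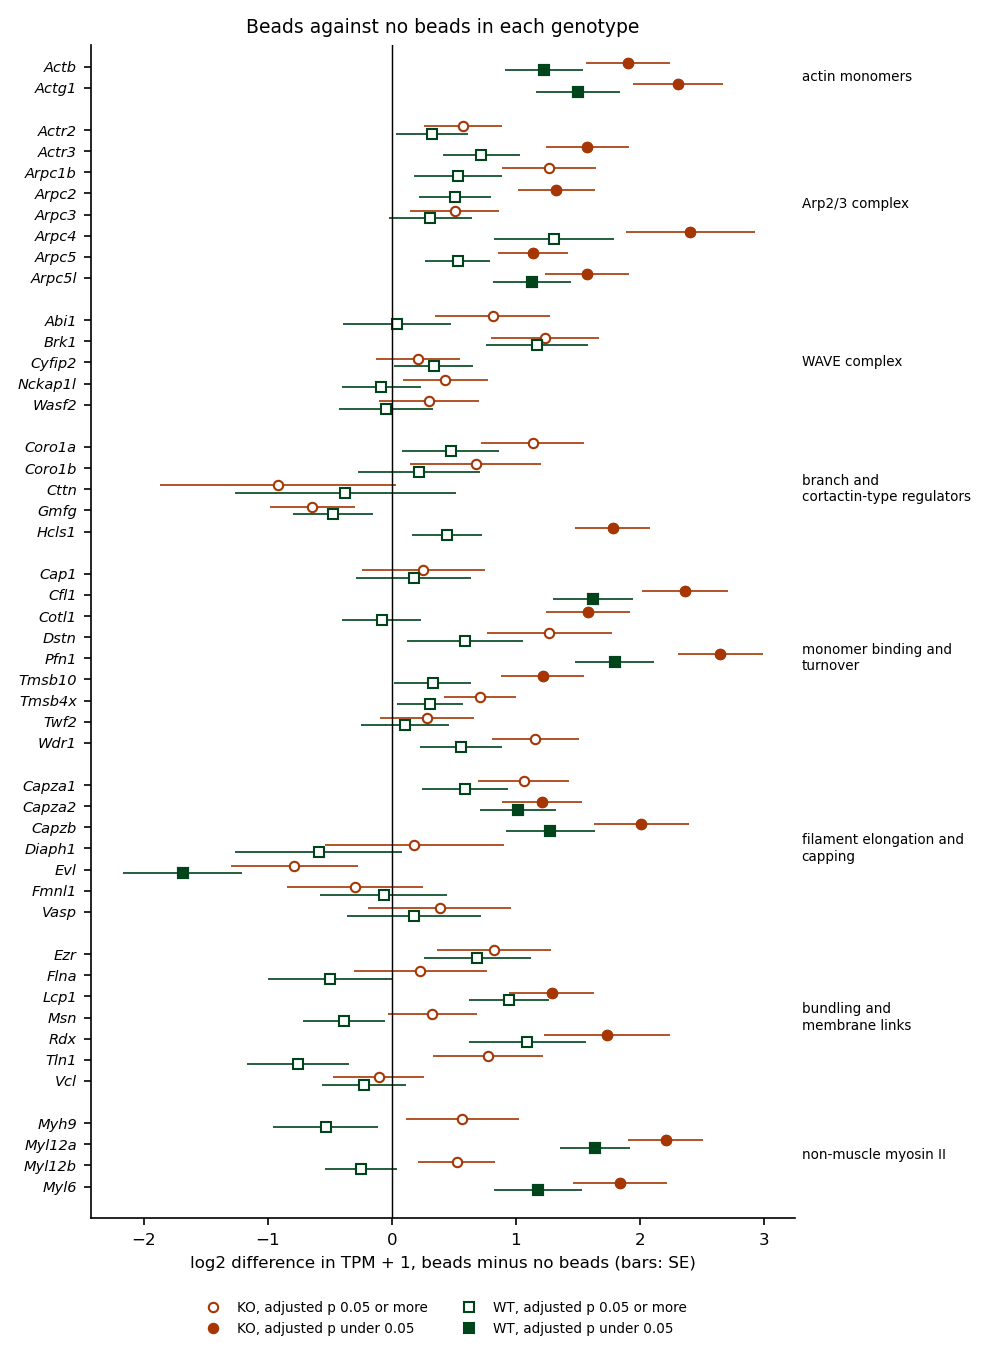
log2 difference in TPM + 1 between bead and unstimulated libraries for each member of the role groups shown, in KO (circles, 2 against 6 libraries) and WT (squares, 3 against 4 libraries), with limma SE as bars and filled symbols for adjusted p under 0.05. Pfn1, Arpc4, Cfl1 and Actg1 lie furthest to the right in KO, up to 2.65 for Pfn1, and Pfn1, Myl12a, Cfl1 and Actg1 do in WT, and Evl lies furthest to the left at -1.68 in WT.

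Both actin monomer genes rose in both genotypes. Actb encodes beta actin (chr5:142903115-142906754, minus strand) and was the most abundant member in every group. In KO cells, Actb had 3346 and 2984 TPM with beads, against a lowest of 646, a median of 795 and a highest of 1277 TPM without. In WT cells, Actb had 2877, 3067 and 3030 TPM with beads, against 1360, 1320, 812 and 1833 TPM without. No bead library overlapped an unstimulated one in either genotype, and the log2 rise was 1.90 (SE 0.335, adjusted p = 0.00273) in KO and 1.23 (SE 0.313, adjusted p = 0.0204) in WT. Actg1 (chr11:120345690-120348542, minus strand) encodes gamma actin. In KO cells, Actg1 had 944 and 938 TPM with beads, against a lowest of 105, a median of 187 and a highest of 316 TPM without. In WT cells, Actg1 had 856, 994 and 874 TPM with beads, against 370, 270, 225 and 461 TPM without. These groups did not overlap either, with log2 rises of 2.31 (SE 0.36, adjusted p = 0.00124) in KO and 1.5 (SE 0.337, adjusted p = 0.0101) in WT. The 2 genes held 30.9% ± 1.32 of the members' summed TPM in KO with beads and 29% ± 0.966 in WT with beads, against 21.6% ± 2.09 in unstimulated KO and 21.4% ± 1.04 in unstimulated WT. This share does not depend on the scale of a library, and its bead and unstimulated ranges did not overlap (30.0 to 31.8% and 28.0 to 29.9%, against 19.2 to 25.3% and 20.3 to 22.8%).

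Of the 8 Arp2/3 genes, 5 rose with beads in KO and 1 in WT, and all 8 differences were positive in both genotypes. Arpc4, the subunit that with Arpc2 forms the core of the complex, had the largest difference. In KO cells, Arpc4 had 214 and 193 TPM with beads, against a lowest of 14.9, a median of 37.1 and a highest of 80.2 TPM without. In WT cells, Arpc4 had 226, 237 and 233 TPM with beads, against 109, 90.7, 58.1 and 131 TPM without. Neither genotype's groups overlapped, and the log2 difference was 2.40 (SE 0.519, adjusted p = 0.00963) in KO and 1.31 (SE 0.486, adjusted p = 0.0988) in WT. Actr3 encodes Arp3, one of the actin-related subunits. In KO cells, Actr3 had 238 and 254 TPM with beads, against a lowest of 53, a median of 79.6 and a highest of 144 TPM without. In WT cells, Actr3 had 262, 223 and 276 TPM with beads, against 137, 166, 119 and 201 TPM without. Its bead libraries stood above all unstimulated ones in both genotypes, by 1.57 (SE 0.334, adjusted p = 0.00868) in KO and 0.72 (SE 0.312, adjusted p = 0.157) in WT.

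Arpc5l is a variant of the Arpc5 subunit and was the Arp2/3 gene called in both genotypes. In KO cells, Arpc5l had 61.5 and 91.5 TPM with beads, against a lowest of 15, a median of 25.5 and a highest of 34.3 TPM without. In WT cells, Arpc5l had 105, 89.9 and 95.2 TPM with beads, against 56.2, 50.2, 36.3 and 35 TPM without. The groups did not overlap, and the rise was 1.57 (SE 0.339, adjusted p = 0.00951) in KO and 1.13 (SE 0.317, adjusted p = 0.0321) in WT. Its alternate, Arpc5, was called in KO and not in WT. In KO cells, Arpc5 had 206 and 166 TPM with beads, against a lowest of 63.8, a median of 83.3 and a highest of 114 TPM without. In WT cells, Arpc5 had 181, 154 and 174 TPM with beads, against 118, 123, 93.7 and 138 TPM without. No bead value overlapped an unstimulated one, the differences were 1.14 (SE 0.281, adjusted p = 0.021) in KO and 0.53 (SE 0.263, adjusted p = 0.216) in WT, and after scaling the KO call was lost (adjusted p = 0.0682). Arpc2, the other core subunit, was likewise called in KO and not in WT. In KO cells, Arpc2 had 258 and 244 TPM with beads, against a lowest of 83.8, a median of 92.4 and a highest of 128 TPM without. In WT cells, Arpc2 had 225, 233 and 226 TPM with beads, against 152, 157, 105 and 262 TPM without. Here KO groups were apart and WT groups overlapped, with 1.32 (SE 0.31, adjusted p = 0.0155) in KO and 0.51 (SE 0.29, adjusted p = 0.285) in WT.

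Arpc1b, the haematopoietic form of the WD-repeat subunit, was the most abundant Arp2/3 gene. In KO cells, Arpc1b had 335 and 338 TPM with beads, against a lowest of 97.1, a median of 122 and a highest of 277 TPM without. In WT cells, Arpc1b had 350, 380 and 374 TPM with beads, against 294, 213, 172 and 384 TPM without. Its differences of 1.27 (SE 0.381, adjusted p = 0.0534) in KO and 0.53 (SE 0.356, adjusted p = 0.366) in WT did not pass the threshold, although the KO groups did not overlap. Actr2 (Arp2) and Arpc3 had log2 differences between 0.31 and 0.57 in both genotypes and were not called. None of the 5 WAVE complex genes was called with beads in either genotype as deposited. Brk1, its smallest subunit, had the highest level among them with beads, and Wasf2 without. In KO cells, Brk1 had 83 and 85.8 TPM with beads, against a lowest of 23.5, a median of 32.8 and a highest of 67.5 TPM without. In WT cells, Brk1 had 104, 79.4 and 73.5 TPM with beads, against 72.1, 41.1, 23.3 and 27.2 TPM without. Bead values were above all unstimulated ones in both genotypes, with differences of 1.23 (SE 0.438, adjusted p = 0.104) in KO and 1.17 (SE 0.409, adjusted p = 0.079) in WT, and after scaling the WT rise was called (adjusted p = 0.0415). The other WAVE complex genes, Wasf2, Nckap1l, Abi1 and Cyfip2, ranged from 0.21 to 0.81 in KO and from -0.09 to 0.34 in WT.

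Among regulators of branches, Hcls1 stood apart. It encodes HS1, the haematopoietic relative of cortactin that binds Arp2/3 branches (chr16:36934983-36963212, plus strand). In KO cells, Hcls1 had 71.8 and 68.3 TPM with beads, against a lowest of 15.6, a median of 19.1 and a highest of 26.5 TPM without. In WT cells, Hcls1 had 69.7, 58.5 and 75.7 TPM with beads, against 43.4, 49.1, 37.9 and 73.3 TPM without. In KO every bead library exceeded every unstimulated one, while WT values overlapped. The rise in KO was 1.78 (SE 0.301, adjusted p = 0.00206) and the WT difference was 0.45 (SE 0.282, adjusted p = 0.339). Coro1a, coronin 1A of haematopoietic cells, was the most abundant gene of this group. In KO cells, Coro1a had 645 and 536 TPM with beads, against a lowest of 168, a median of 267 and a highest of 492 TPM without. In WT cells, Coro1a had 585, 529 and 636 TPM with beads, against 479, 389, 240 and 686 TPM without. Its differences of 1.14 (SE 0.416, adjusted p = 0.116) in KO and 0.47 (SE 0.389, adjusted p = 0.472) in WT were not called.

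Gmfg, glia maturation factor gamma, which removes Arp2/3 branches, had the opposite sign. In KO cells, Gmfg had 44.7 and 42.1 TPM with beads, against a lowest of 39.8, a median of 73.7 and a highest of 92.3 TPM without. In WT cells, Gmfg had 66.7, 90.8 and 56.8 TPM with beads, against 105, 92.2, 68.6 and 136 TPM without. WT groups overlapped, as did KO groups, and the differences were -0.64 (SE 0.343, adjusted p = 0.306) in KO and -0.47 (SE 0.321, adjusted p = 0.374) in WT. After scaling, KO bead libraries were wholly below unstimulated ones and the fall of -1.12 was called (adjusted p = 0.0271). Cttn, cortactin itself, lay between 0.692 and 35.3 TPM over all libraries with no called difference, and Coro1b had 0.68 in KO and 0.22 in WT.

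Of the 9 genes for monomer binding and filament turnover, 4 rose in KO and 2 in WT. Pfn1 encodes profilin 1, which feeds monomers to growing filament ends (chr11:70651850-70654644, minus strand), and had the largest rise of all members. In KO cells, Pfn1 had 1552 and 1490 TPM with beads, against a lowest of 172, a median of 222 and a highest of 402 TPM without. In WT cells, Pfn1 had 1531, 1579 and 1533 TPM with beads, against 583, 385, 305 and 574 TPM without. Bead and unstimulated values lay far apart in both genotypes. The log2 rise was 2.65 (SE 0.34, adjusted p = 0.000306) in KO and 1.79 (SE 0.318, adjusted p = 0.00275) in WT, and by mean TPM Pfn1 ranked 2 among members in both bead groups, against 5 in unstimulated KO and 3 in unstimulated WT.

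Cfl1 encodes cofilin 1, which severs old filaments (chr19:5490455-5495201, plus strand). In KO cells, Cfl1 had 591 and 503 TPM with beads, against a lowest of 68, a median of 104 and a highest of 164 TPM without. In WT cells, Cfl1 had 536, 640 and 528 TPM with beads, against 195, 179, 141 and 227 TPM without. The lowest bead value was well above the highest unstimulated value in both genotypes, with rises of 2.37 (SE 0.346, adjusted p = 0.00078) in KO and 1.62 (SE 0.324, adjusted p = 0.00534) in WT. Cotl1, coactosin-like protein, binds filaments (chr8:119809222-119840544, minus strand). In KO cells, Cotl1 had 42.8 and 39.5 TPM with beads, against a lowest of 9.2, a median of 13.8 and a highest of 17.6 TPM without. In WT cells, Cotl1 had 27.7, 30.5 and 42.2 TPM with beads, against 36.6, 30.8, 25.9 and 50.5 TPM without. KO groups did not overlap and rose by 1.58 (SE 0.34, adjusted p = 0.00942), while WT groups overlapped with a difference of -0.08 (SE 0.318, adjusted p = 0.901).

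Tmsb4x, thymosin beta 4, the main monomer-sequestering protein, was the most abundant of this group by mean over the 4 group means. In KO cells, Tmsb4x had 1086 and 1183 TPM with beads, against a lowest of 528, a median of 668 and a highest of 1017 TPM without. In WT cells, Tmsb4x had 1266, 1078 and 1242 TPM with beads, against 1098, 995, 719 and 1093 TPM without. KO groups were apart and WT groups overlapped, and neither difference was called, at 0.71 (SE 0.287, adjusted p = 0.159) in KO and 0.31 (SE 0.269, adjusted p = 0.502) in WT. Tmsb10, its relative thymosin beta 10, had lower levels. In KO cells, Tmsb10 had 257 and 303 TPM with beads, against a lowest of 78.1, a median of 122 and a highest of 166 TPM without. In WT cells, Tmsb10 had 299, 210 and 229 TPM with beads, against 234, 240, 133 and 188 TPM without. The KO difference of 1.22 (SE 0.335, adjusted p = 0.0364) was called and the WT one of 0.33 (SE 0.313, adjusted p = 0.545) was not, and the KO call was lost after scaling (adjusted p = 0.108). Of the rest, Wdr1 and Dstn, both depolymerizing factors, had 1.16 and 1.27 in KO and 0.56 and 0.59 in WT. Cap1 and Twf2 stayed between 0.11 and 0.28 in both genotypes.

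Capping and elongation genes went in both directions. Capzb, the beta subunit of capping protein, rose in both genotypes. In KO cells, Capzb had 237 and 239 TPM with beads, against a lowest of 36.2, a median of 56.6 and a highest of 107 TPM without. In WT cells, Capzb had 235, 305 and 269 TPM with beads, against 123, 104, 64.8 and 178 TPM without. No values overlapped, and the rise was 2.01 (SE 0.383, adjusted p = 0.00469) in KO and 1.28 (SE 0.358, adjusted p = 0.032) in WT. Capza2, an alpha subunit, rose as well. In KO cells, Capza2 had 86.5 and 102 TPM with beads, against a lowest of 32, a median of 35.6 and a highest of 78.2 TPM without. In WT cells, Capza2 had 115, 130 and 122 TPM with beads, against 71.5, 49.2, 60.8 and 60.3 TPM without. The difference was 1.21 (SE 0.323, adjusted p = 0.0315) in KO, where the unnumbered library without beads nearly reached the bead values, and 1.02 (SE 0.302, adjusted p = 0.0414) in WT. The KO call of Capza2 was lost after scaling (adjusted p = 0.129).

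Evl, an Ena/VASP protein that promotes filament elongation, was the member called lower. In KO cells, Evl had 10.6 and 6.49 TPM with beads, against a lowest of 5.91, a median of 19.4 and a highest of 25 TPM without. In WT cells, Evl had 4.85, 2.7 and 6.77 TPM with beads, against 21.2, 18.4, 10.8 and 18.4 TPM without. WT bead values were all below the unstimulated ones and fell by 1.68 on the log2 scale (SE 0.479, adjusted p = 0.0337), while KO values overlapped, with a difference of -0.79 (SE 0.512, adjusted p = 0.414). The difference between these responses was 0.90 (SE 0.701, limma adjusted p = 0.999). Vasp and the formin genes Diaph1 and Fmnl1 lay between -0.59 and 0.39 in both genotypes, and Capza1 had 1.06 in KO and 0.59 in WT.

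Lcp1 encodes L-plastin, the leukocyte filament bundler, and was the most abundant gene of bundling and membrane links with beads, where Msn was without. In KO cells, Lcp1 had 192 and 142 TPM with beads, against a lowest of 43.1, a median of 68.3 and a highest of 105 TPM without. In WT cells, Lcp1 had 151, 211 and 189 TPM with beads, against 79.7, 79.4, 83.7 and 147 TPM without. Groups were apart in both genotypes, at 1.29 (SE 0.344, adjusted p = 0.0314) in KO and 0.94 (SE 0.322, adjusted p = 0.0723) in WT, and the KO call was lost after scaling (adjusted p = 0.0994). Rdx, radixin, was the membrane linker called in KO. In KO cells, Rdx had 39.9 and 44.4 TPM with beads, against a lowest of 5.35, a median of 13.3 and a highest of 22.5 TPM without. In WT cells, Rdx had 39.8, 43.7 and 57.1 TPM with beads, against 18.3, 16.1, 17.4 and 39 TPM without. Bead values exceeded unstimulated ones throughout, by 1.73 (SE 0.507, adjusted p = 0.048) in KO and 1.09 (SE 0.475, adjusted p = 0.158) in WT, and the KO call was lost after scaling (adjusted p = 0.0608). Moesin and ezrin were not called, with Msn at 0.33 in KO and -0.39 in WT and Ezr at 0.82 and 0.69.

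Tln1, talin 1, which couples integrins to actin, had opposite signs in the genotypes. In KO cells, Tln1 had 31.3 and 36.9 TPM with beads, against a lowest of 10, a median of 17.4 and a highest of 43.3 TPM without. In WT cells, Tln1 had 17.9, 16.6 and 14.8 TPM with beads, against 22.5, 22.9, 25 and 50 TPM without. WT bead libraries were all below the unstimulated ones, and KO values overlapped. The differences of 0.78 (SE 0.442, adjusted p = 0.341) in KO and -0.76 (SE 0.413, adjusted p = 0.263) in WT were not called. Flna (filamin A) had 0.23 and -0.49, and Vcl was at or under 1.27 TPM in every library.

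Rac2 encodes the haematopoietic Rac GTPase that activates the WAVE complex. In KO cells, Rac2 had 218 and 199 TPM with beads, against a lowest of 60.5, a median of 77.2 and a highest of 139 TPM without. In WT cells, Rac2 had 207, 210 and 209 TPM with beads, against 182, 163, 111 and 239 TPM without. KO groups were apart and rose by 1.26 (SE 0.36, adjusted p = 0.0433), while WT groups overlapped at 0.32 (SE 0.337, adjusted p = 0.593), and the KO call was lost after scaling (adjusted p = 0.053). Rac1, the widely expressed Rac GTPase, had 1.09 in KO and 0.74 in WT, not called.

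Within non-muscle myosin II, the light chain genes Myl12a and Myl6 rose in both genotypes, and the heavy chain gene and Myl12b were not called. Myl12a encodes a regulatory light chain (chr17:70993656-71002878, minus strand). In KO cells, Myl12a had 335 and 324 TPM with beads, against a lowest of 48.3, a median of 71 and a highest of 104 TPM without. In WT cells, Myl12a had 397, 365 and 369 TPM with beads, against 117, 108, 93.8 and 175 TPM without. Values were far apart, with rises of 2.21 (SE 0.302, adjusted p = 0.000462) in KO and 1.64 (SE 0.282, adjusted p = 0.00237) in WT. Its neighbour Myl12b (chr17:70973133-70990890, minus strand) behaved otherwise. In KO cells, Myl12b had 145 and 158 TPM with beads, against a lowest of 68.6, a median of 108 and a highest of 156 TPM without. In WT cells, Myl12b had 170, 162 and 169 TPM with beads, against 225, 224, 130 and 235 TPM without. These values overlapped in both genotypes, at 0.52 (SE 0.312, adjusted p = 0.365) in KO and -0.25 (SE 0.291, adjusted p = 0.628) in WT.

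Myl6, the essential light chain, was the most abundant myosin gene. In KO cells, Myl6 had 493 and 639 TPM with beads, against a lowest of 79.5, a median of 168 and a highest of 232 TPM without. In WT cells, Myl6 had 625, 645 and 643 TPM with beads, against 375, 243, 173 and 395 TPM without. Groups did not overlap and rose by 1.84 (SE 0.38, adjusted p = 0.00739) in KO and 1.18 (SE 0.355, adjusted p = 0.0437) in WT. Myh9, the heavy chain of myosin IIA, had lower levels. In KO cells, Myh9 had 65.4 and 45.2 TPM with beads, against a lowest of 20.1, a median of 34.9 and a highest of 60.8 TPM without. In WT cells, Myh9 had 42, 41.1 and 20.5 TPM with beads, against 53.4, 54, 28.4 and 65.1 TPM without. Both genotypes overlapped between treatments, at 0.57 (SE 0.454, adjusted p = 0.519) in KO and -0.53 (SE 0.424, adjusted p = 0.456) in WT.

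**Figure D3:**
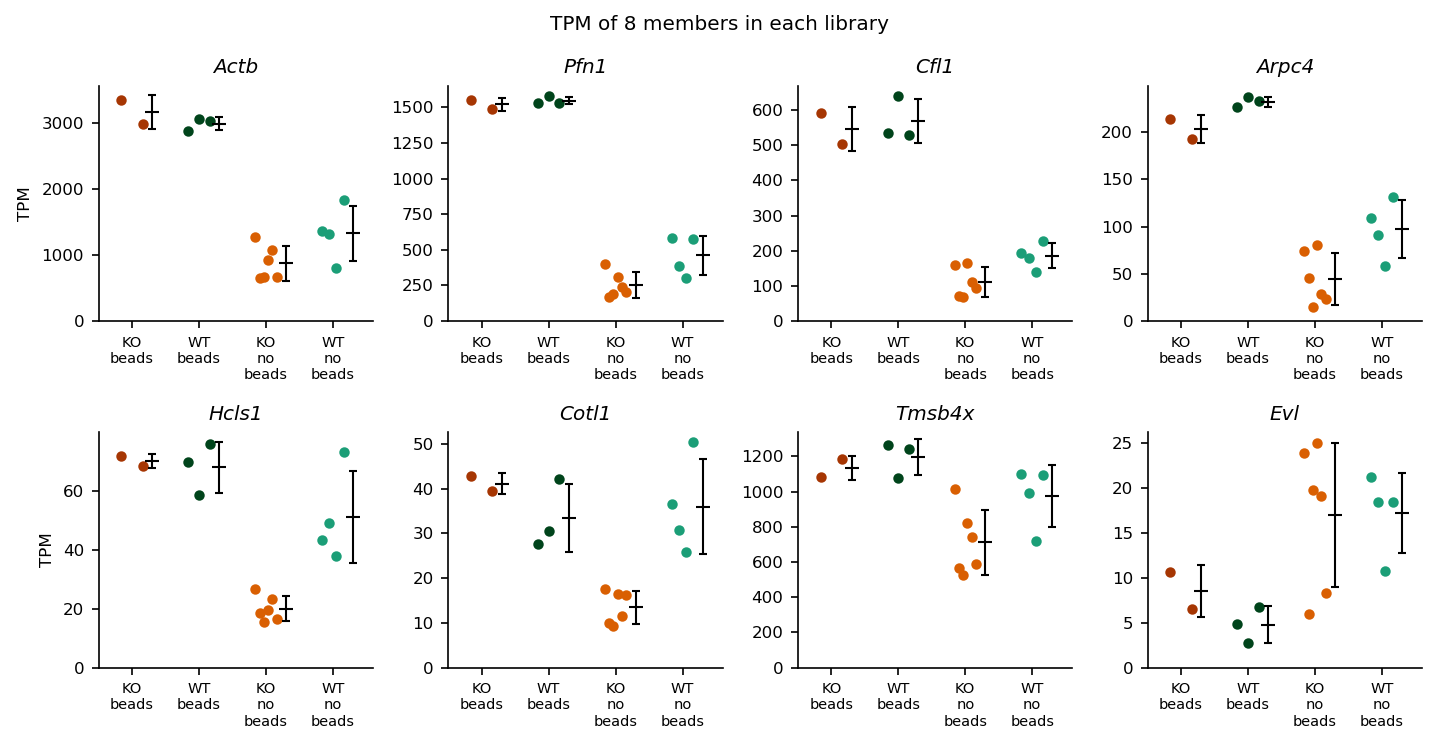
TPM of Actb, Pfn1, Cfl1, Arpc4, Hcls1, Cotl1, Tmsb4x and Evl in each library (points), with the mean and SD beside them, for KO and WT with beads and KO and WT without. Actb, Pfn1 and Cfl1 separate by treatment in both genotypes, while Hcls1 and Cotl1 are low in all 6 unstimulated KO libraries, at most 26.5 and 17.6 TPM.

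Without beads, no member was called between KO and WT by limma in either direction, against 0.0734% of all tested genes. At an unadjusted p under 0.05, 21 of 51 members were lower in KO, against 8.89% of all tested genes, and 0 were higher, against 2.40%. Shares at an unadjusted p were set beside all tested genes only, not the more abundant ones. The log2 difference was negative for 47 of 51 members and positive for 4, with a median of -0.55, beside -0.44 in the more abundant genes and -0.11 in all genes. After scaling the median was -0.17, beside -0.09 and 0.12, with 38 negative and 13 positive, and 10 members had an unadjusted p under 0.05, all lower in KO, against 3.99% of all genes lower and 6.05% higher. Of the 51 signs, 9 turned under this scaling. The summed TPM of the T and Treg cell markers was lower in all 6 KO libraries than in any WT library. Taken singly, Trac and Foxp3 had no overlap between genotypes, and each of the other markers overlapped. Entpd1 ranged higher in KO (167 to 337 TPM) than in WT (131.5 to 207 TPM). The repeat-derived genes took 24.7% to 48.2% of listed TPM in KO and 14.8% to 34.4% in WT, with overlap. Their part in the difference was not tested.

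Hcls1 and Cotl1 had the smallest p values. Hcls1 had a lowest of 15.6, a median of 19.1 and a highest of 26.5 TPM in 6 KO libraries, against 43.4, 49.1, 37.9 and 73.3 TPM in 4 WT libraries. Every KO library was below every WT library, including the unnumbered one. The log2 difference was -1.28 (SE 0.238, adjusted p = 0.0719), which did not pass the threshold. It ranged from -1.48 to -0.92 over 26 alternatives, with adjusted p between 0.0368 and 0.334, and was called under 1 of them, without the unnumbered KO library (-1.37, adjusted p = 0.0368).

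Cotl1 had a lowest of 9.2, a median of 13.8 and a highest of 17.6 TPM in KO, against 36.6, 30.8, 25.9 and 50.5 TPM in WT. Its KO and WT values did not overlap. The difference was -1.35 (SE 0.269, adjusted p = 0.0932) and ranged from -1.5 to -0.99 over the alternatives, with adjusted p between 0.0513 and 0.372. After scaling, Hcls1 was at -0.92 and Cotl1 at -0.99, and both still had no overlap. Myl12b was next, with a lowest of 68.6, a median of 108 and a highest of 156 TPM in KO, against 225, 224, 130 and 235 TPM in WT. The groups overlapped through the unnumbered KO library and WT library 2, and the difference was -0.91 (SE 0.246, adjusted p = 0.195).

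Counted over the list, 3 of 51 members had every KO library below every WT library, namely Hcls1, Cotl1 and Arpc5l, against 1.27% of all tested genes, and 0 had every KO library above. Scaled, they were Hcls1, Cotl1 and Cfl1, against 0.644% of all genes. By role, medians as deposited ranged from -0.80 in non-muscle myosin II and -0.74 in the Arp2/3 complex to -0.27 in bundling and membrane links. All 8 Arp2/3 genes and all 5 WAVE genes had negative differences, and none was called. After scaling 7 Arp2/3 genes were negative and 1 positive, and 3 WAVE genes were negative and 2 positive. As deposited the positive differences were those of Cttn at 0.34, Cap1 at 0.20, Vasp at 0.07 and Ezr at 0.00. The X-linked members Tmsb4x, Msn and Flna had -0.48, -0.27 and -0.22. KO and WT cells also differed in which X was active, in Cre and in the YFP sort. For every member, X-linked or not, these cannot be told apart from DOCK8 deficiency.

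**Figure D4:**
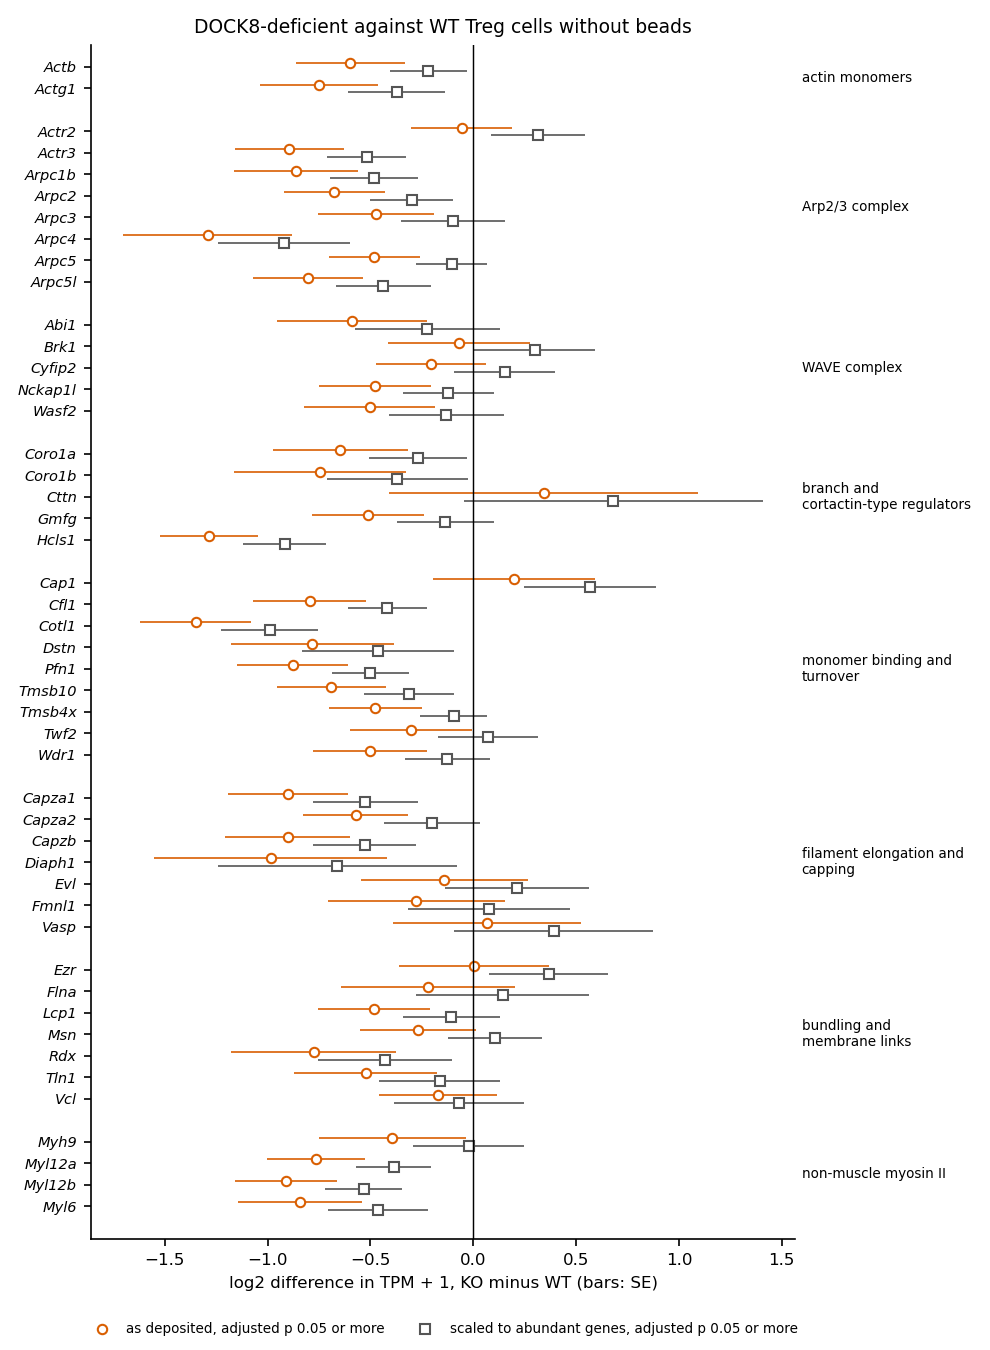
log2 difference in TPM + 1 between 6 KO and 4 WT unstimulated libraries for each member of the role groups shown, as deposited (circles) and scaled to abundant genes (squares), with limma SE as bars. No symbol is filled because no adjusted p was under 0.05, and the scaled values lie to the right of the deposited ones, where Hcls1 and Cotl1 are at -0.92 and -0.99.

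With beads, no member was called between KO and WT, against 0.00333% of all tested genes, and 0 had an unadjusted p under 0.05. The median log2 difference was -0.05, beside 0.00 in the more abundant genes and 0.13 in all genes, and 45 of 51 members lay between -0.5 and 0.5. Talin 1 had the smallest p. Tln1 had 31.3 and 36.9 TPM in KO, against 17.9, 16.6 and 14.8 TPM in WT, and both KO values lay above all WT values. The log2 difference was 1.01 (SE 0.494, limma adjusted p = 1). Gmfg had 44.7 and 42.1 TPM in KO, against 66.7, 90.8 and 56.8 TPM in WT, lower in both KO libraries, at -0.68 (SE 0.383, limma adjusted p = 1). Myh9 had 65.4 and 45.2 TPM in KO, against 42, 41.1 and 20.5 TPM in WT, at 0.71 (SE 0.507, limma adjusted p = 1). Hcls1 and Cotl1, which had the smallest p without beads, were at 0.05 and 0.31 with beads. Both KO libraries were below all 3 WT libraries for 8 members (Arpc1b, Arpc4, Capza1, Capza2, Cyfip2, Gmfg, Myl12a and Myl12b), against 8.02% of all genes, and above them for 4 (Actr2, Arpc2, Myh9 and Tln1), against 17.4%. After scaling these counts were 14, against 10.3%, and 2, against 14.9%.

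The response to beads did not differ between genotypes at the threshold for any member, against 0.00333% of all genes called. At an unadjusted p under 0.05 the KO response exceeded the WT response for 3 of 51 members, near the 3.49% of all tested genes, and fell short for 0, against 0.664%. These were Cotl1, at 1.66 (SE 0.466, limma adjusted p = 0.847), Hcls1, at 1.33 (SE 0.413, limma adjusted p = 0.999), and Tln1, at 1.53 (SE 0.605, limma adjusted p = 0.999). For Cotl1 and Hcls1 bead values overlapped between genotypes and unstimulated values did not. For Tln1 unstimulated values overlapped and bead values did not. The median difference between responses was 0.61, beside 0.47 in the more abundant genes and 0.27 in all genes. Scaled to abundant genes it was 0.12, and 18 of 51 signs turned, so the larger count of calls in KO than in WT (19 and 9) is not shown to be a larger response.

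Ratios of related members within a library cancel its scale apart from the added 1 TPM, which matters for low genes such as Cttn, and 11 were compared in 4 comparisons with exact two-sided permutation tests, 44 in all. None had an adjusted p under 0.05, the lowest being 0.279, and the smallest raw p these designs allow is 0.00476 between genotypes at rest and 0.1 between them with beads, and 0.0357 in KO and 0.0286 in WT between treatments. The log2 ratio of Myl12b to Myl12a was -1.2 and -1.03 in KO with beads, against values between -0.0534 and 1.13 in unstimulated KO. In WT it was -1.22, -1.17 and -1.12 with beads, against 0.934, 1.04, 0.471 and 0.42 without. Every bead library had more Myl12a than Myl12b, and 9 of 10 unstimulated libraries had more Myl12b, the exception being KO library 1. The difference was -1.68 in KO (exact p = 0.0357) and -1.89 in WT (exact p = 0.0286), both the smallest possible. How reads were split between these genes and the second gene named Myl12b was not tested.

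The ratio of radixin to moesin was higher with beads in both genotypes. The log2 ratio of Rdx to Msn was -1.61 and -0.913 in KO with beads, against values between -3.76 and -2.1 without. In WT it was -0.808, -0.58 and -0.662 with beads, against -2.11, -2.68, -1.96 and -1.9 without. Moesin stayed the more abundant of the pair in all 15 libraries. Differences were 1.41 in KO (exact p = 0.0357) and 1.48 in WT (exact p = 0.0286), again without overlap. Cttn against Hcls1 had a log2 ratio of -3.43 and -2.94 in KO with beads, against values between -1.38 and 0.573 in unstimulated KO (difference -2.70, exact p = 0.0357). Between unstimulated KO and WT that ratio averaged -0.49 and -2.11, with overlap (difference 1.63, exact p = 0.0381). The WT mean rested on the unnumbered library, at -4.71 with Cttn at 0.692 TPM, and without it the WT mean was -1.25 and the difference 0.76 (exact p = 0.131). The Actg1 to Actb ratio averaged -1.75 and -1.72 in KO and WT with beads, against -2.15 and -2.0 without, with overlap in KO (difference 0.40, exact p = 0.143) and none in WT (difference 0.28, exact p = 0.0857).

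**Figure D5:**
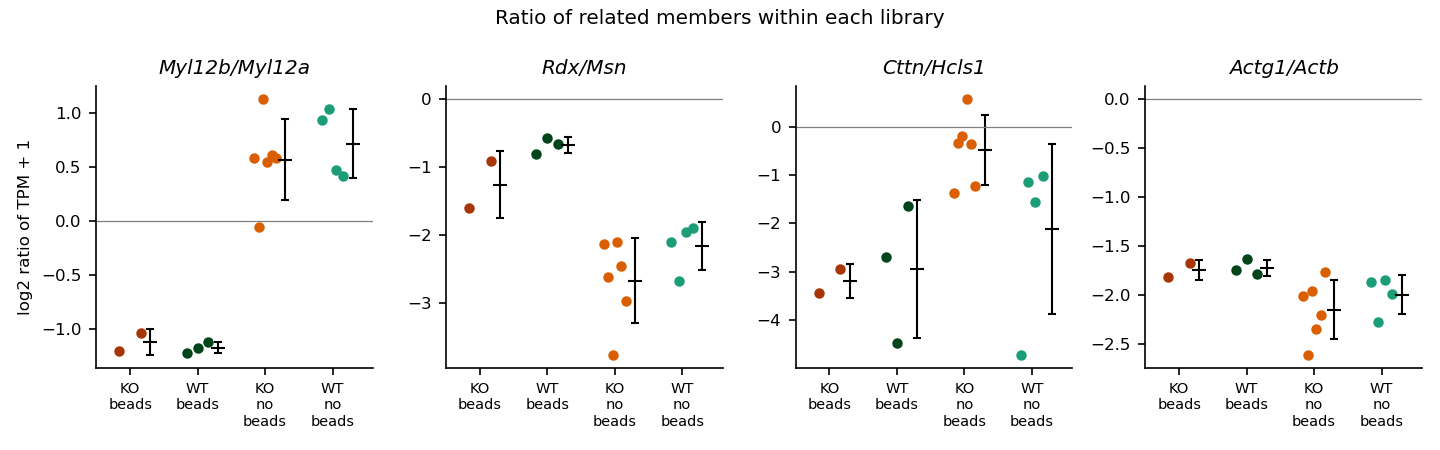
log2 ratio of TPM + 1 for 4 pairs of related members within each library (points), with the mean and SD beside them, for KO and WT with beads and KO and WT without. The Myl12b to Myl12a ratio lies between -1.22 and -1.03 with beads and between -0.0534 and 1.13 without, and the Rdx to Msn ratio is higher in all 5 bead libraries than in any unstimulated one.

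A wider list of 92 other actin genes, of which 91 were tested, was counted beside the members, and the genes named from it were chosen after their values were seen. With beads in KO 10 were called higher and 2 lower, against 5.95% and 2.15% of all tested genes, with a median of 0.04. In WT 5 were called higher and 9 lower, against 4.60% and 6.63%, with a median of -0.37. After scaling KO had 8 higher and 10 lower (median -0.40; 4.25% and 6.12% of all genes) and WT had 8 higher and 13 lower (median -0.35; 4.88% and 5.77%). In both comparisons of KO with WT and in the difference between responses 0 were called by limma, with medians of -0.26 without beads, 0.16 with beads and 0.42 for the responses. Called genes that bind or stabilize filaments included the capping protein Capg, which averaged 227 ± 33.8 TPM in KO with beads and 49.1 ± 13.6 TPM without, a rise of 2.22 (SE 0.369, adjusted p = 0.00183). In WT Capg averaged 385 ± 64.6 TPM with beads and 154 ± 75.8 TPM without, a rise of 1.42 (SE 0.346, adjusted p = 0.0157). The hyaluronan receptor Cd44, a partner of ezrin, radixin and moesin, rose by 2.27 (SE 0.352, adjusted p = 0.00121) in KO and 1.89 (SE 0.329, adjusted p = 0.00255) in WT, and tropomyosin Tpm4 by 2.07 (SE 0.355, adjusted p = 0.00223) in KO. Mrtfa, a coactivator of serum response factor, averaged 11.1 ± 0.566 TPM in KO with beads and 39.7 ± 17.9 TPM without, a difference of -1.65 (SE 0.43, adjusted p = 0.0277). Both genes moved the same way in WT. Mrtfa averaged 11.7 ± 2.36 TPM in WT with beads and 35.8 ± 15.7 TPM without, and Tpm4 78 ± 8.93 and 44.2 ± 16.9 TPM. The cofilin phosphatase Ssh2 fell by 1.28 (SE 0.273, adjusted p = 0.00894) on the log2 scale in KO and by 1.62 (SE 0.255, adjusted p = 0.00144) in WT. Was, which encodes WASP, fell in WT, at -1.53 (SE 0.348, adjusted p = 0.011), and was at -0.10 (SE 0.372, adjusted p = 0.915) in KO. Cdc42, the GTPase that DOCK8 activates, rose in KO, at 1.24 (SE 0.343, adjusted p = 0.0367), and was at 0.51 (SE 0.321, adjusted p = 0.331) in WT, and its KO call was lost after scaling (adjusted p = 0.0882). Of the genes named here, Capg, Cd44 and Tpm4 were still called in KO without KO bead library 4, and Cd44 without library 5. In WT, Capg was not called without WT bead library 2 or 3, and Was without library 3.

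Ordered by mean TPM, Actb was first in every group, at 3165 ± 256 TPM in KO with beads, 2992 ± 101 in WT with beads, 875 ± 262 in unstimulated KO and 1331 ± 417 in unstimulated WT (SD). Pfn1, Tmsb4x and Actg1 followed in both bead groups, at 1521, 1134 and 941 TPM in KO and 1548, 1195 and 908 TPM in WT. Tmsb4x was second without beads, at 711 TPM in KO and 976 TPM in WT. Next without beads came Arhgdib, Coro1a and Pfn1, at 301, 287 and 253 TPM in KO and 445, 449 and 462 TPM in WT, neighbours whose means differed by less than their spread. By role, monomer binding and turnover genes held 28.5% ± 0.486 of the members' TPM in KO with beads, 28.6% ± 0.962 in WT with beads, 27.6% ± 1.78 in unstimulated KO and 27.1% ± 2.25 in unstimulated WT. WAVE complex genes held 1.61% ± 0.179, 1.65% ± 0.238, 2.78% ± 0.348 and 2.3% ± 0.366 in the same order. The Arp2/3 complex held 10.8% ± 0.0546, 11.2% ± 0.496, 11.9% ± 1.28 and 12.8% ± 0.771, and for both complexes the bead and unstimulated ranges met or overlapped in at least 1 genotype.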

How the data were processed

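Members and lists were chosen with earlier results of these data known. The authors deposited 1 table of TPM per library, used as given. The submitters' processing notes name STAR, Salmon, DESeq2 and mm10, with no versions or roles; the sources used here do not give depth, strand setting or annotation. Salmon-type quantification can split reads between near-identical genes. Genes were matched to GENCODE vM21 (GRCm38), which gave coordinates, and promoter windows came from RefSeq (GRCm38.p6).

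Genes reaching 1 TPM in 2 or more of 15 libraries (29989) entered limma 3.58.1 under R 4.3.3 as log2(TPM + 1), with the trend option, 1 mean per group and 11 residual degrees of freedom. p was adjusted by the Benjamini-Hochberg method over all genes in each of 5 comparisons, with calls at an adjusted p under 0.05. Differences are on the log2(TPM + 1) scale, which understates changes of low genes; SE are limma's, ± is the SD between libraries, and p-values measure only the spread between these samples. The fit was tested on simulated data. Ratios used log2((A + 1)/(B + 1)) and exact permutation tests.

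Values in every library are given for each member called in any comparison, for the 3 with the smallest p in each comparison and for the most abundant of each role group, except 1 group of members that is not reported here. Libraries carry the number in their title; 2 have none. Same-numbered libraries of different groups did not deviate together (11 pairs, r between -0.0249 and 0.0265), so numbers were not used to pair them. This check cannot exclude that libraries shared a mouse, because it runs over all tested genes and the 2 KO bead libraries deviate as mirror images. Alternatives were a pseudocount of 0.1 or of 5, a filter at 5 TPM, none at all, scaling to abundant genes with or without members, quantile normalization, only the groups compared, a title-number block, array weights and each library left out. Leaving out both unnumbered libraries was added after the data were seen.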

Additional observations from a re-analysis of the deposited data

Results flagged for a closer look

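There were 102 sets of TPM as deposited (51 members in each group of at least 4 libraries). Of these, 9 had 1 library far from the others, where chance gives about 1 in 20 for independent sets. Members of 1 library share its scale, so these sets are not independent. Scaled values were not searched for such libraries. The unnumbered unstimulated KO library was high for 5 members: Abi1 at 56.5 TPM (other KO libraries 12.2 to 23.5), Coro1b at 144 TPM (30.5 to 72.3), Cap1 at 68.4 TPM (19.8 to 33.8), Capzb at 107 TPM (36.2 to 60.5) and Capza2 at 78.2 TPM (32.0 to 39.9). Unstimulated WT library 3 was high for Lcp1 at 147 TPM (other WT libraries 79.4 to 83.7), Rdx at 39.0 TPM (16.1 to 18.3) and Tln1 at 50 TPM (22.5 to 25). Unstimulated WT library 2 was low for Myl12b at 130 TPM (224 to 235).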

How the results depend on the processing

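No value changed sign where it was called. Between KO and WT without beads, 0 members were called under every alternative except leaving out the unnumbered KO library, which gave 1 (Hcls1), so leave-one-out gave 0 to 1. With beads, and for the difference between responses, 0 members were called under all 26 alternatives. With beads in WT, 10 members were called, 15 with array weights, 13 and 14 after scaling with and without members, 4 by quantile normalization, 6 with the replicate block, and 4 to 10 with each library left out (4 without any 1 WT bead library, 5 without unstimulated WT library 1 or 2). With beads in KO, 19 were called, 27 with array weights, 14 and 15 after scaling, 12 by quantile normalization, 10 with only the groups compared, 9 with the replicate block, and 4 to 23 with each library left out (5 without KO bead library 4, 4 without KO bead library 5). Leaving 1 KO bead library assumes that it varies like the other groups. Pfn1, Cfl1 and Myl12a kept their call in both genotypes under all 26, and Actg1 did in KO and in WT lost it by quantile normalization (adjusted p = 0.0540).

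Medians moved with the scale. Scaled to abundant genes, with all of them and without members, the KO against WT median was -0.17 without beads in the first case, and -0.15 and -0.16 with beads; the KO bead median was 0.59 and 0.64, and the median difference between responses 0.12 and 0.13. Quantile normalization gave -0.0056 for KO against WT with beads and 0.48 for beads in KO. The replicate block, which shares only title numbers, gave -0.0033 for KO against WT with beads. With each library left out that median lay between -0.0524 and -0.0059. Causes were not tested. Over all 51 members and 5 comparisons, 6615 fits under the alternatives lost 143 calls and gained 43. Read depth is unknown, and 2 KO bead libraries limit each comparison that uses them.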
